A study of Mus musculus with 4 samples.

Results

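The Gimap genes form a cluster of lymphocyte GTPases on mouse chromosome 6. The H3K27me3 peaks of the cluster were taken here as all peaks that overlap a 200 kb window, 6:48560001-48760000 on the mouse build mm9. The window held 13 of 20024 peaks in progenitors of adult bone marrow and 6 of 31847 peaks in progenitors of fetal liver. Its bounds were proposed together with the gene names Gimap1, Gimap3, Gimap4, Gimap5, Gimap6, Gimap7, Gimap8 and Gimap9. They were not checked against gene positions on mm9, because the gene table used here is on another build, GRCm38.p6. No peak can therefore be assigned to a single Gimap gene. On GRCm38.p6 the sequences before the start sites ran from 48646984 (Gimap8) to 48771101 (Gimap3), a stretch shorter than the window. The window may thus hold sequence of neighbouring genes, so its coverage must not be read as that of the Gimap genes alone. The window was also chosen by values of these lists, the covered lengths and the peaks present in 1 list only, so the excess of bone marrow peaks in it is a description, with no test.

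The study mapped H3K27me3, trimethylation of lysine 27 of histone H3, by native chromatin immunoprecipitation and sequencing. Lineage-negative progenitors came from C57BL/6 mice, either from the marrow of long bones at 8 weeks of age or from fetal livers at embryonic day 14.5. Sorting removed cells positive for CD3, CD8, Gr1, Ter119, B220, CD11b, CD11c or NK1.1. All cells of both sources were kept in medium with IL-3, IL-6, FLT3 ligand and SCF, transduced with a NOTCH1ΔE (N1dE) lentivirus, cultured for 3 days and sorted for the GFP of the virus, so no comparison with cells free of activated NOTCH1 can be made here. Each source gave 1 immunoprecipitation sample and 1 input, and each immunoprecipitation has 1 list of peaks, which peak names describe as merged libraries against input. The number of merged libraries and the read depth are unknown, the spread between cultures cannot be measured, and every difference below describes these 2 lists only.

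H3K27me3 is written by Polycomb repressive complex 2 and marks silent genes. In mammals the complex favours stretches rich in unmethylated CpG dinucleotides. Gimap proteins (GTPases of immunity-associated proteins) share a GTP-binding domain of the AIG1 type and are expressed mainly in T and B lymphocytes. Several of them sit on intracellular membranes. Gimap5 is needed for the survival of peripheral T cells, and its loss causes lymphopenia in rodents. Gimap1 is needed for mature T and B cells, Gimap4 has been linked to the pace of T-cell death, Gimap6 to autophagy, and Gimap3 to the segregation of mitochondrial DNA in blood cells. Gimap8 is the largest member and carries several GTP-binding domains. NOTCH1 signalling drives blood progenitors into the T lineage, where these genes are active.

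All 8 members were found in the RefSeq gene table, in the order Gimap8, Gimap9, Gimap4, Gimap6, Gimap7, Gimap1, Gimap5 and Gimap3. No other protein-coding gene lay between them. Zfp775 was the nearest protein-coding gene before Gimap8, and Tmem176b the nearest after Gimap3. Gimap6 and Gimap3 are read from the minus strand and the other members from the plus strand.

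Most sequences before the Gimap start sites were below the RefSeq median in CpG, the dinucleotide that Polycomb target promoters often hold in large numbers. Over the 250 bases before each RefSeq start site, 9 windows of the 8 genes (Gimap8 has a second one) held 1 to 8 CpG, with a median of 3. All 32851 RefSeq windows of this length had a median of 6 and an interquartile range of 2 to 16. Gimap9 had 8 CpG and was the only member window above that median. The other 8 windows held 3 CpG or fewer. The median ratio of observed to expected CpG was 0.16 in the Gimap windows and 0.37 over all windows. G and C made up 43.6 to 61.2% of the bases, with a median of 47.6% against 52.4% over all windows. 3 of these sequences are printed to show the range, Gimap9 with the most CpG, Gimap4 near the middle and Gimap3 with the fewest. They are from RefSeq on GRCm38.p6, written 5′ to 3′ along the gene, and capitals mark each CpG. Their positions belong to GRCm38.p6 and must not be read against the mm9 positions of the peaks, although the figures look alike.
Gimap9, chr6:48675885-48676134, plus strand: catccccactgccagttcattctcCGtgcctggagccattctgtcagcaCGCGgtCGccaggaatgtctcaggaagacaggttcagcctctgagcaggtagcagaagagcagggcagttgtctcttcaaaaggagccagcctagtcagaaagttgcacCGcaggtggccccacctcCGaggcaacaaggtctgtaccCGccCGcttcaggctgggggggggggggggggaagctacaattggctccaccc
Gimap4, chr6:48684328-48684577, plus strand: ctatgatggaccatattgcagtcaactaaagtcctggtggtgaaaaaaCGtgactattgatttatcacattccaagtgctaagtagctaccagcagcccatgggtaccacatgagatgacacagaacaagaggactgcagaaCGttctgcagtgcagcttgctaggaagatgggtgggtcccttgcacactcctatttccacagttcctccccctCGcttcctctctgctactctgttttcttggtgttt
Gimap3, chr6:48770852-48771101, minus strand: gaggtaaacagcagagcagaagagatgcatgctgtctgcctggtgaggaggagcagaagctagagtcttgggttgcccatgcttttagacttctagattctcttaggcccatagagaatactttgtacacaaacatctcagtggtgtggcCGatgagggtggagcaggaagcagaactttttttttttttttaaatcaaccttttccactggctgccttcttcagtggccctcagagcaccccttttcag
These 250 bases gave 8 CpG in Gimap9, 3 in Gimap4 and 1 in Gimap3.

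Short motifs of lymphoid factors were counted in the same 9 windows, on both strands. The letters TGGGAA, the core bound by the NOTCH partner RBPJ, were in 0 of the 9 windows and in 21.6% of all RefSeq windows. The letters TGTGGT, a core bound by RUNX factors, were in 3 of them (Gimap4, Gimap7 and Gimap1) and in 14.0% of all. The letters AGGAAG, a form bound by ETS factors, were in 7 and in 29.5% of all. Gimap6 and the first window of Gimap8 lacked these letters. Other forms bound by ETS factors were not counted, and Gimap6 holds the letters CGGAAG. The windows of Gimap8 overlap each other and are not independent. Such matches describe the letters only.

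Across the cluster window, H3K27me3 peaks covered more of the chromosome in bone marrow than in fetal liver progenitors, whereas the lists as a whole stood the other way round. In bone marrow 17.01 kb of the window (8.51%) lay in peaks, and in fetal liver 6.32 kb (3.16%). The ratio of covered bases, bone marrow over fetal liver, was 2.69. The same ratio was 0.653 on chromosome 6 and 0.664 over all chromosomes. The fetal liver list is the longer one. A role of list length or read depth in the excess was not tested. The fold enrichment over input, the ratio given by the authors' peak caller as a mean over each peak, ran from 1.46 to 2.65 in bone marrow and from 1.64 to 2.85 in fetal liver. The −log10 q, the authors' significance after correction for multiple tests, ran from 0.65 to 1.55 and from 0.68 to 1.68. No peak of the window reached a −log10 q of 2 or a fold enrichment of 3, and with either of these cuts the window is empty in both lists. Over all chromosomes, the bone marrow list kept 5313 of its 20024 peaks at the first cut and 1766 at the second. The fetal liver list, with 31847 peaks, kept 4844 and 1446.

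**Figure D1:**
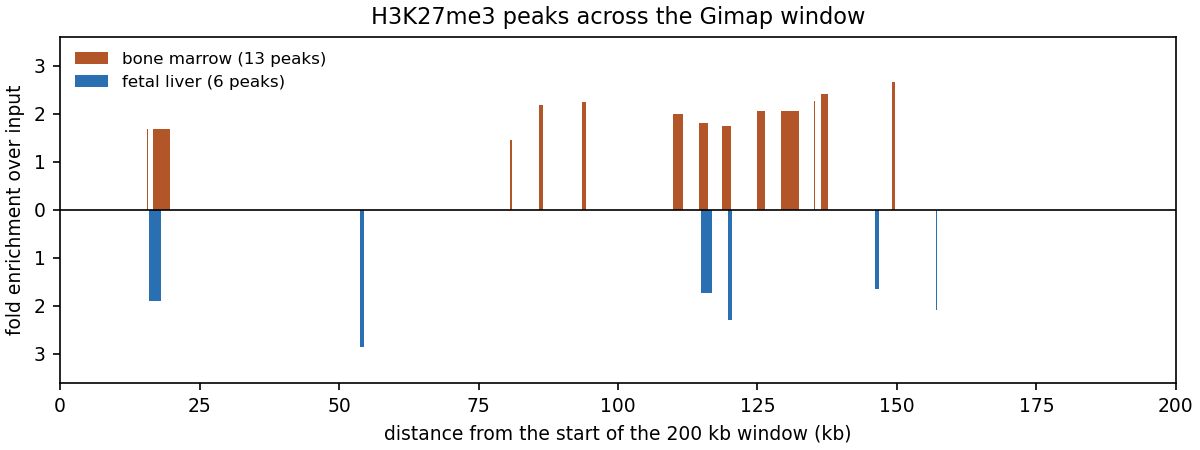
Peaks of the 200 kb Gimap window by distance from its start (kb, x axis), with the authors' fold enrichment over input (y axis), bone marrow upwards and fetal liver downwards. Bar width is peak width. All but the first 2 of the 13 bone marrow peaks lie between 80 and 150 kb, and the 6 fetal liver peaks are spread from 16.0 to 157.0 kb.

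The lists shared few bases within the window. Of 20.16 kb covered by either list, 13.84 kb (68.6%) lay in bone marrow peaks only, 3.17 kb (15.7%) in both lists and 3.15 kb (15.6%) in fetal liver peaks only. Over all chromosomes these classes took 14.7%, 42.0% and 43.3%. Shared bases made up 18.7% of the bone marrow coverage of the window, against 74.1% of bone marrow coverage over all chromosomes. For fetal liver the shares were close, 50.2% in the window and 49.2% over all chromosomes. Most covered bases of the window thus lay in bone marrow peaks only, which restates the values by which the window was chosen. The fetal liver share rests on 3 overlapping peaks of 6.

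Counted as peaks, 10 of the 13 bone marrow peaks overlapped no fetal liver peak, where 32.0% of the whole bone marrow list had none. Of the 6 fetal liver peaks, 3 overlapped no bone marrow peak, against 60.2% of the whole fetal liver list. The 10 bone marrow peaks without overlap covered 10.97 kb, were 200 to 3247 bp wide and had a median width of 730.5 bp. The 3 fetal liver peaks without overlap covered 1.54 kb, at 242, 593 and 707 bp. Distances to the nearest fetal liver peak ran from 0.183 to 28.4 kb for these 10 peaks, with a median of 8.52 kb. Over the 6405 bone marrow peaks of the whole list without overlap the median distance was 3.48 kb (interquartile range 1.02 to 16.8 kb). For the 3 fetal liver peaks the distances to bone marrow were 2.46, 7.27 and 26.2 kb, with a whole-list median of 8.90 kb.

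**Figure D2:**
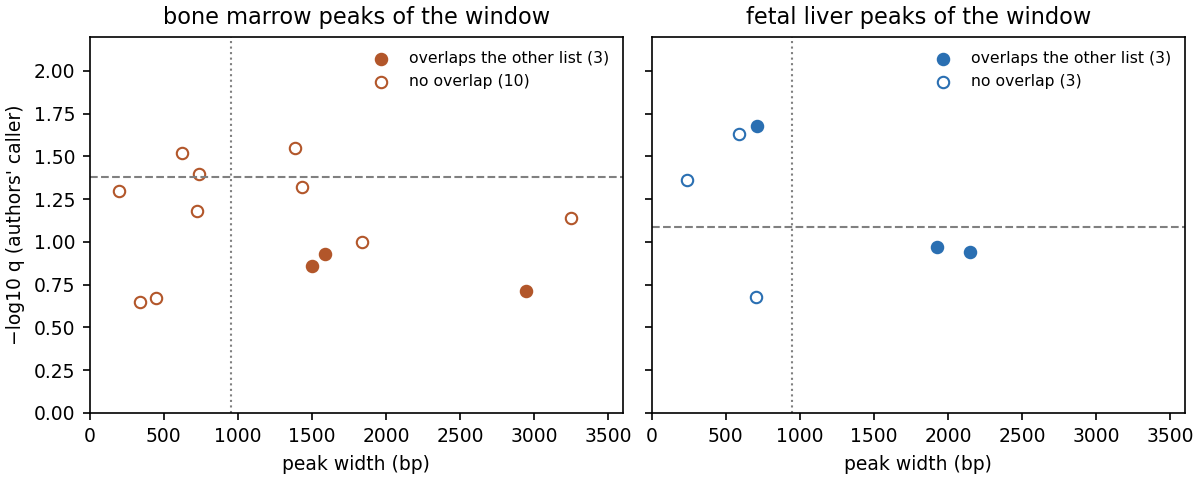
Width in bp (x axis) and −log10 q (y axis) of each peak of the window, for bone marrow (left) and fetal liver (right). Filled points overlap a peak of the other list and open points do not, and the grey lines give the medians of each whole list (957 bp and 1.38 in bone marrow, 945 bp and 1.09 in fetal liver). The 3 overlapping bone marrow peaks have −log10 q of 0.71 to 0.93, below the list median.

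The bone marrow peaks that overlapped fetal liver were wide and weak. Those that did not included both the highest and the lowest fold enrichment and −log10 q of that list in the window. The 3 overlapping bone marrow peaks were 1502, 1590 and 2947 bp wide, all above the median width of the list, with fold enrichments of 1.74, 1.81 and 1.69, all below its median of 2.12. The 10 others had fold enrichments of 1.46 to 2.65, 5 of them above that median, and −log10 q of 0.65 to 1.55, with 3 of them above the list median of 1.38. In fetal liver the 3 overlapping peaks were 708, 1927 and 2147 bp wide, with fold enrichments of 2.30, 1.74 and 1.90. The fetal liver peak of highest fold in the window, 2.85, overlapped nothing in bone marrow and stood at the 93.8th percentile of its list by fold. With so few peaks, these differences are descriptions of single peaks.

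Along the window, the marked stretches fell into 9 regions when neighbouring peaks with a gap of up to 3 kb were joined. 4 regions held bone marrow peaks only, 2 held fetal liver peaks only and 3 held both. Over all chromosomes, 13.0%, 45.4% and 41.6% of 22283 such regions fell into these classes. The number of regions with bone marrow peaks only depended on the joining distance, with 10 where only touching peaks were joined, 8 within 1 kb and 1 within 10 kb. The first was shared, 6:48575472-48579638, near the start of the window. A bone marrow peak of 343 bp with a fold enrichment of 1.68 and one of 2947 bp with 1.69 covered 79.0% of it. A fetal liver peak of 2147 bp with a fold enrichment of 1.90 covered 51.5%. The lists had 1453 bp in common there, the longest shared stretch of the window. No peak of either list followed for 34.2 kb, the widest empty stretch between peaks of the window.

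A fetal liver peak then stood alone at 6:48613803-48614395. It was 593 bp wide, had a fold enrichment of 2.85 and scored 1.63 in −log10 q, and lay 26.2 kb from the nearest bone marrow peak. Bone marrow had no peak over 60.9 kb here, from 48579639 to 48640566.

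Next came 3 separate bone marrow peaks with no fetal liver peak near them. The first, 6:48640567-48641014, was 448 bp wide and the weakest by fold in the window, at 1.46. The second, 6:48645796-48646521, was 726 bp wide with a fold enrichment of 2.18. The third, 6:48653643-48654377, was 735 bp wide with 2.25. They lay 26.2, 28.4 and 20.6 kb from the nearest fetal liver peak, and were the 3 most isolated bone marrow peaks of the window. Fetal liver had no peak over the 60.5 kb from 48614396 to 48674940.

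The widest shared region was 6:48669753-48680425, 10.7 kb long. Bone marrow peaks of 1836, 1590 and 1502 bp covered 46.2% of it, with fold enrichments of 2.00, 1.81 and 1.74. Fetal liver peaks of 1927 and 708 bp covered 24.7%, with fold enrichments of 1.74 and 2.30. The lists had 1227 and 494 bp in common in 2 stretches. The first of the bone marrow peaks had no fetal liver overlap and stood 3.35 kb from the nearest one. The shorter fetal liver peak had a −log10 q of 1.68, the highest of the 19 peaks.

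The region marked in bone marrow only at 6:48684908-48697657 was the widest of its kind in the window, at 12.8 kb. It held 4 peaks that covered 6.26 kb, or 49.1% of its length. They were 1430, 3247, 200 and 1383 bp wide. Their fold enrichments were 2.05, 2.05, 2.27 and 2.40, and their −log10 q values were 1.32, 1.14, 1.30 and 1.55. The peak of 3247 bp was the widest of the window in either list. The nearest fetal liver peaks were 4.48 kb before the first of these peaks and 8.31 kb after the last. Fetal liver had no peak over 25.5 kb here, from 48680426 to 48705967.

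The last marks were short. A fetal liver peak of 707 bp with a fold enrichment of 1.64, at 6:48705968-48706674, and a bone marrow peak of 624 bp with 2.65, at 6:48709131-48709754, lay 2.46 kb apart. They were joined into 1 region that shared no base. The bone marrow peak had the highest fold enrichment of its list in the window, at the 82.7th percentile of the whole list. A fetal liver peak of 242 bp, 6:48717021-48717262, with a fold enrichment of 2.08, was the last of the window. Neither list had a peak in the remaining 42.7 kb.

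In 5 kb bins, bone marrow peaks reached 12 of the 40 bins and fetal liver peaks 7. There were 7 bins marked in bone marrow only, 2 in fetal liver only, 5 in both and 26 in neither. Of the 14 marked bins, 10 were covered more in bone marrow and 4 more in fetal liver, a split whose share over all bins was not computed. Over all 39677 bins of the genome with a peak in either list, 11.6% were marked in bone marrow only, 41.4% in fetal liver only and 46.9% in both. The largest excess of bone marrow was in 6:48690001-48695000, with 2.40 kb against 0 kb. It was followed by 6:48685001-48690000 with 2.18 kb against 0 kb, 6:48670001-48675000 with 2.01 against 0.06 kb, 6:48695001-48700000 with 1.58 against 0 kb, and 6:48575001-48580000 with 3.29 against 2.15 kb. The 3 bins with 0 kb in fetal liver adjoin one another and hold nearly all of the region of bone marrow peaks only. The excesses of fetal liver were smaller, 0.59 kb in 6:48610001-48615000, 0.24 kb in 6:48715001-48720000, 0.12 kb in 6:48680001-48685000 and 0.08 kb in 6:48705001-48710000.

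**Figure D3:**
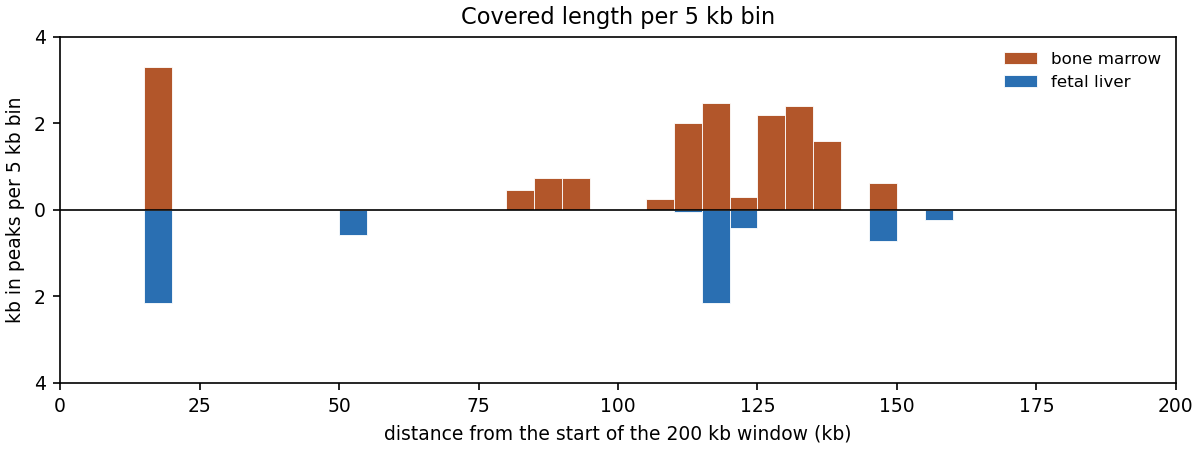
Length in peaks (kb, y axis) in each of the 40 bins of 5 kb along the window (x axis, kb from its start), bone marrow upwards and fetal liver downwards. Bone marrow has more than 1.5 kb in 5 of the 6 bins from 110 to 140 kb, and fetal liver exceeds 2 kb only in the bins at 15 and 115 kb.

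Split into 4 parts of 50 kb, the window had most of its coverage in the third, 6:48660001-48710000. There 8 bone marrow peaks covered 11.81 kb (23.6% of 50 kb) and 3 fetal liver peaks covered 3.34 kb (6.68%). The first part had 3.29 kb and 2.15 kb, the second 1.91 kb and 0.59 kb, and the last 0 kb and 0.24 kb, in bone marrow and fetal liver. The difference between the lists was thus 8.47 kb in the third part, of 10.69 kb in the whole window.

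In the lists as deposited, the window was covered more than its surroundings in both, with the larger ratio in bone marrow. In the 1 Mb before the window, bone marrow had 2 peaks over 2.71 kb (0.271%) and fetal liver 15 peaks over 10.8 kb (1.08%). In the 1 Mb after it, bone marrow had 11 peaks over 20.64 kb (2.06%) and fetal liver 20 peaks over 15.42 kb (1.54%). The share of the window in peaks was 7.29 times that of both sides together in bone marrow and 2.41 times in fetal liver. With 500 kb on each side the value for bone marrow was 4.39 times, and with peaks of a fold enrichment of at least 2 it was 4.49 times. The direction turned in fetal liver, to 0.964 times, when its list was cut to the length covered by bone marrow peaks. Cuts at a −log10 q of 2 or a fold enrichment of 3 left the window empty. The side after the window is uneven. A region of bone marrow peaks only, 6:49160667-49177491, lay 401 kb beyond the window and held 14.84 kb of the 20.64 kb. Without it, bone marrow covered 5.80 kb of that side against 15.42 kb in fetal liver.

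Among the 10 windows of 200 kb on both sides, bone marrow coverage ran from 0 to 7.68%, with a median of 0.506%, and fetal liver coverage from 0 to 2.83%, with a median of 1.29%. None of them reached the Gimap window in its own list. The fullest in bone marrow, at 7.68% against 0.635% in fetal liver, was the one with the region just named. The nearest peaks outside the bounds were a bone marrow peak 163.0 kb before the window and one 41.0 kb after it, and fetal liver peaks 239.0 kb before and 11.4 kb after. Their −log10 q values were 1.26 and 0.76 in bone marrow and 1.49 and 0.65 in fetal liver, against 0.65 and 1.52 for the outermost bone marrow peaks inside the window and 0.94 and 1.36 for the outermost fetal liver ones.

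**Figure D4:**
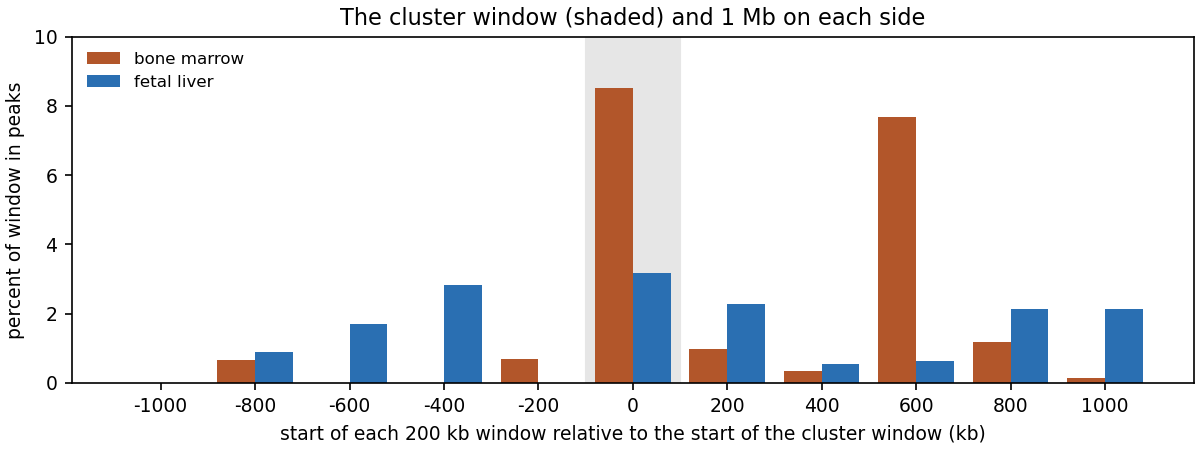
Percent of each 200 kb window in peaks (y axis) for the Gimap window (shaded, at 0) and the 5 windows on each side (x axis, start relative to the Gimap window in kb), in bone marrow and fetal liver. The Gimap window has the highest value of both lists, 8.51% and 3.16%.

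Set against all windows of the same length with a peak in either list, the Gimap window was high in bone marrow, nearer the middle in fetal liver and near the extreme in the difference. Its bone marrow coverage lay at the 90.0th percentile of 6232 other windows and its fetal liver coverage at the 60.4th. The medians of those windows were 1.43% and 2.15%. Of all 6233 windows, 24.5% were covered more in bone marrow. The difference of 10.69 kb in favour of bone marrow lay at the 99.7th percentile, and 17 other windows (0.273%) had one as large or larger, of which 4 were on chromosome 6. The window 600 kb further on, counted from start to start, was one of them, with 14.09 kb. Because the locus was proposed for its excess of bone marrow peaks, this place in the order shows its size and is no evidence for it.

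**Figure D5:**
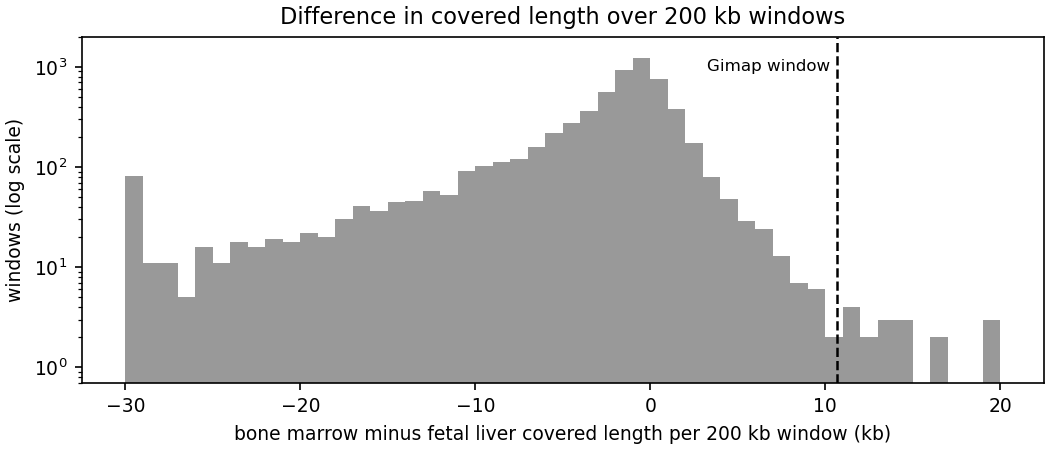
Number of 200 kb windows (y axis, log scale) by bone marrow minus fetal liver covered length (x axis, kb, in steps of 1 kb), with the Gimap window as a dashed line at 10.69 kb. The first bar includes 71 windows below −30 kb and the last bar 3 above 20 kb, and most windows lie at or below 0.

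Bone marrow coverage stayed above fetal liver coverage under every change that altered the coverage and left peaks in the window. The window was chosen for that excess. With only the 20024 fetal liver peaks of highest −log10 p, 4 of its 6 peaks in the window were left and the ratio of covered bases was 4.61. Such a cut removes fetal liver peaks only, so it could not lower the ratio. A cut at a −log10 q of at least 1 kept 14529 of 20024 peaks in the whole bone marrow list. In the whole fetal liver list it kept 18137 of 31847. In the window this cut left 8 bone marrow and 3 fetal liver peaks, covering 5.09% and 0.771% of it. Fetal liver coverage was then 1.04 times that of its surroundings, against 2.41 times with the deposited list. It was 1.87 times with peaks of a fold enrichment of at least 2, 2.16 times with the 20024 fetal liver peaks and 3.00 times with peaks of at least 1 kb.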

How the data were processed

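H3K27me3 peak lists of 2 immunoprecipitation samples were used, 1 from bone marrow and 1 from fetal liver; the 2 inputs served as controls of the authors' peak calls and have no file of their own here. The authors worked on mm9 with MACS2 2.1.0, BWA 0.5.7 and Picard, per the submitters' processing notes; their settings and depth are unknown here. The deposited columns are a fold enrichment (ratio to input), a −log10 p, a −log10 q and a score, which (but for 1 peak in each list) is 10 times the −log10 q cut to a whole number; the score was left aside. Groups came from the sample titles.

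Covered bases, overlaps of at least 1 bp, distances, bins of 5 kb, joined regions (3 kb) and windows of 200 kb were computed in Python 3.11.15 (pandas 2.3.3, numpy 2.4.6). Coordinates count from 1. Counts of peaks without overlap equalled those of bedtools 2.31.1. On simulated data the code recovered 2000 of 2000 regions. These lay further apart than the joining distance, so that count does not test the joining of near peaks. The 200 kb windows lie on a grid that includes the cluster window; those without any peak are left out.

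The members, the gene list and the window were chosen with earlier results of these data known. Named were every peak of the window, every joined region, and the 5 bins of largest excess in each list (fetal liver had 4). Alternatives changed the score, width, list length, bounds, overlap rule, bins, flanks, joining distance and grid; cuts at a fold of 2 and at a −log10 q of 1 were added after seeing the data. Genes and cell type markers, though planned, were not placed on the peaks for want of an mm9 gene table here, and protein sequences were not used here. With 1 list per cell type there is no p-value.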

Additional observations from a re-analysis of the deposited data

How the results depend on the processing

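No paired analysis was possible because each source of cells has 1 list. A value was counted as unchanged within 1.5 times of the reported one. By this rule 65 of 106 alternative values were unchanged, 37 moved further and 4 turned direction. Some of the unchanged bone marrow values could not move, because only the fetal liver list was cut. In the window, a −log10 q of at least 2 or a fold of at least 3 left 0 peaks, 0% coverage and 0 bins marked in 1 list only. The window over its flanks was then 0 in both lists at the first cut. It was 0 in bone marrow at the second, where no value could be formed for fetal liver. At a −log10 q of at least 1, coverage was 5.09% in bone marrow and 0.771% in fetal liver, a ratio of 6.60, and fetal liver stood at 1.04 times its flanks. At a fold of at least 2 coverage was 4.17% and 0.771%, the ratio 5.41, and bone marrow stood at 4.49 times its flanks. Cut to as many peaks as bone marrow has, the fetal liver list covered 1.85% (ratio 4.61). Cut to the length that bone marrow peaks cover, it covered 0.771% (ratio 11.0), and the window then stood at 0.964 times its flanks in fetal liver, below them. Peaks of at least 1 kb gave a fetal liver coverage of 2.04%, 5 bone marrow and 0 fetal liver peaks without overlap, and 0 bins of fetal liver only. Bins of 2 kb gave 15 of bone marrow only and 5 of fetal liver only, bins of 10 kb gave 4 of bone marrow only, and a minimum of 500 bp gave 1 of fetal liver only. Flanks of 500 kb put bone marrow at 4.39 times. Joining where peaks touch, within 1 kb and within 10 kb gave 10, 8 and 1 regions of bone marrow only, and the last gave 1 of fetal liver only. The cause was not tested where the settings themselves do not show it. No setting that entered the ratio of covered bases and left fetal liver peaks in the window turned it. The cuts of the fetal liver list could not lower it, since they remove fetal liver peaks only. Bins, flanks, joining distance, overlap rule and grid do not enter it. The unknown read depth limits every comparison between the lists.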
